A study of Mus musculus with 6 samples.

Results

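The genes described here are 8 negative feedback inhibitors of ERK signalling: the phosphatase genes Dusp4, Dusp5 and Dusp6, the Sprouty genes Spry1, Spry2 and Spry4, and the Sprouty-related genes Spred1 and Spred2. They were chosen by name, and all probe sets that the platform annotation pairs with them were taken, which gave 23 of 45037 probe sets and 8 of 18193 genes. Expression was measured in melan-a, a line of immortal melanocytes (pigment cells) from C57BL/6 mouse embryos, on 6 oligonucleotide arrays, 1 for each group. The cells were transduced with delta-BRAF-ER, an activated BRAF kinase whose activity is switched on by adding tamoxifen. The groups were activated BRAF together with an introduced ZEB2, SNAIL2, TWIST1 or ZEB1, activated BRAF alone (BRAF-on), and the same construct without activation (BRAF-off). Since cells given tamoxifen but lacking the construct were not analysed here, effects of the drug and of BRAF cannot be told apart. With 1 array per group no difference could be tested and no p-value is given. A ratio compares 1 array with 1 other, and so few arrays limit the precision. The study asked how the 4 embryonic transcription factors bear on genes that respond to BRAF.

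RAS, RAF, MEK and ERK form a kinase cascade that carries growth signals, and active ERK switches on genes for proteins that damp the cascade again. DUSP4, DUSP5 and DUSP6 remove phosphate from ERK. DUSP4 and DUSP5 do so in the nucleus and DUSP6 in the cytoplasm. Sprouty proteins hold back signalling between receptors and RAF. SPRED proteins bring the RAS inhibitor neurofibromin to the membrane. In melanocytes and melanoma, transcripts of several of these genes are commonly used as a readout of ERK activity.

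Signals are MAS5 values on a linear scale, and the median over every array and probe set, 63.7 signal units, served as a floor for dim values. Of the 23 probe sets, 17 lay at or above it on all 6 arrays, 2 on some arrays and 4 (1 of Spry4, 2 of Spred1 and 1 of Spred2) on none. Dusp4, Dusp5, Dusp6 and Spry1 have 1 probe set each, Spry2 has 2, Spry4 has 4, Spred2 has 5 and Spred1 has 8. Unless another is named, each gene is represented by its brightest probe set on average, which was above the floor on every array for all 8 genes. Levels of different genes are not compared, since probe sets differ in brightness.

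Some facts of the arrays touch these values. The probe sets of the introduced factors were not 2-fold higher on the array labelled with each factor: the log2 ratio to BRAF-on was 0.49 for Zeb2, -0.41 for Snai2, -0.28 for Twist1 and -0.30 for Zeb1. Neither labels nor files say whether these probes read the introduced sequences, and the arrays are called by their labels. Of 10 melanocyte markers, all 10 lay above the floor on 5 arrays and 3 (Mitf, Sox10 and Pax3) on that labelled TWIST1. Their summed signal was 122373 with ZEB2, 148781 with SNAIL2, 4956 with TWIST1, 29128 with ZEB1, 69783 in BRAF-on and 95458 in BRAF-off, so the arrays on which all 10 were above the floor also differed in it. Of 7 fibroblast markers, 6 lay above the floor with TWIST1 (summed signal 15951) and 4 in BRAF-on (6710), and Lum was below it on every array. Of 7 macrophage and leukocyte markers, 3 lay above the floor on every array, with a summed signal of 1207 with ZEB1 and 595 in BRAF-on, while Ptprc and Adgre1 were below it throughout. Endothelial markers, 6 in all, had 2 above the floor in BRAF-on (summed signal 320) and none in BRAF-off (138), and keratinocyte markers had 1 or 2 of 5 above it on each array. The 24 poly-A control probe sets were 2.55-fold brighter with SNAIL2 than in BRAF-on by their median, and between 0.88-fold and 1.42-fold on the other arrays. The part of these differences in the members' values was not tested. In bulk RNA, fewer cells of a type and less RNA per cell cannot be told apart.

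Dusp5, the nuclear phosphatase gene that acts on ERK and no other MAP kinase, was the member that differed most between BRAF-on and BRAF-off. It had a signal of 644 in BRAF-on, against 198 in BRAF-off, a log2 ratio of 1.70 (3.25-fold), which is rank 31 from the highest among 11200 genes compared. The other 7 genes lay within 1.25-fold between these 2 arrays, with Spry2 the farthest on the lower side. Of the 8 genes, 1 was at least 2-fold higher and 0 lower, against 1.04% of all genes that were this much higher and 0.384% that were this much lower. Their median log2 ratio was -0.0017, and that of all genes was also -0.0017. With each array centred on its median, all genes had a median of -0.20 and the small ratios of Spry4 (-0.10), Spred1 (-0.14) and Spred2 (-0.09) turned negative. Dusp5 is only moderately bright: its BRAF-off signal lies under a floor at the 75th percentile (476 signal units). With that floor its log2 ratio is only a bound, at least 0.43, and no member was counted.

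With an added factor, Dusp5 was low on 2 arrays and high on the other 2. Its signal was 236 with ZEB2 and 249 with SNAIL2, against 644 in BRAF-on. With TWIST1 it was 566 and with ZEB1 1065, the highest of the 6 arrays. The levels with ZEB2 and SNAIL2 thus lay near the BRAF-off array, and those with TWIST1 and ZEB1 on the side of BRAF-on. The log2 ratio to BRAF-on was -1.44 with ZEB2, rank 6 from the lowest among 11322 genes, and -1.37 with SNAIL2, rank 297 from the lowest among 11416. It was 0.73 with ZEB1 and -0.19 with TWIST1, the last of which turned to 0.01 when each array was centred on its median. Over the 6 arrays the highest Dusp5 signal was 5.37 times the lowest, a span that 2.14% of 9937 genes above the floor on all arrays equalled or passed. Since 1 array stands for each group and Dusp5 has 1 probe set, no second reading of this gene is at hand. With the 75th percentile as the floor, the Dusp5 signals with ZEB2 and with SNAIL2 lie under it. Both log2 ratios to BRAF-on then become the same bound of -0.43, which does not measure how much lower they are.

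**Figure D1:**
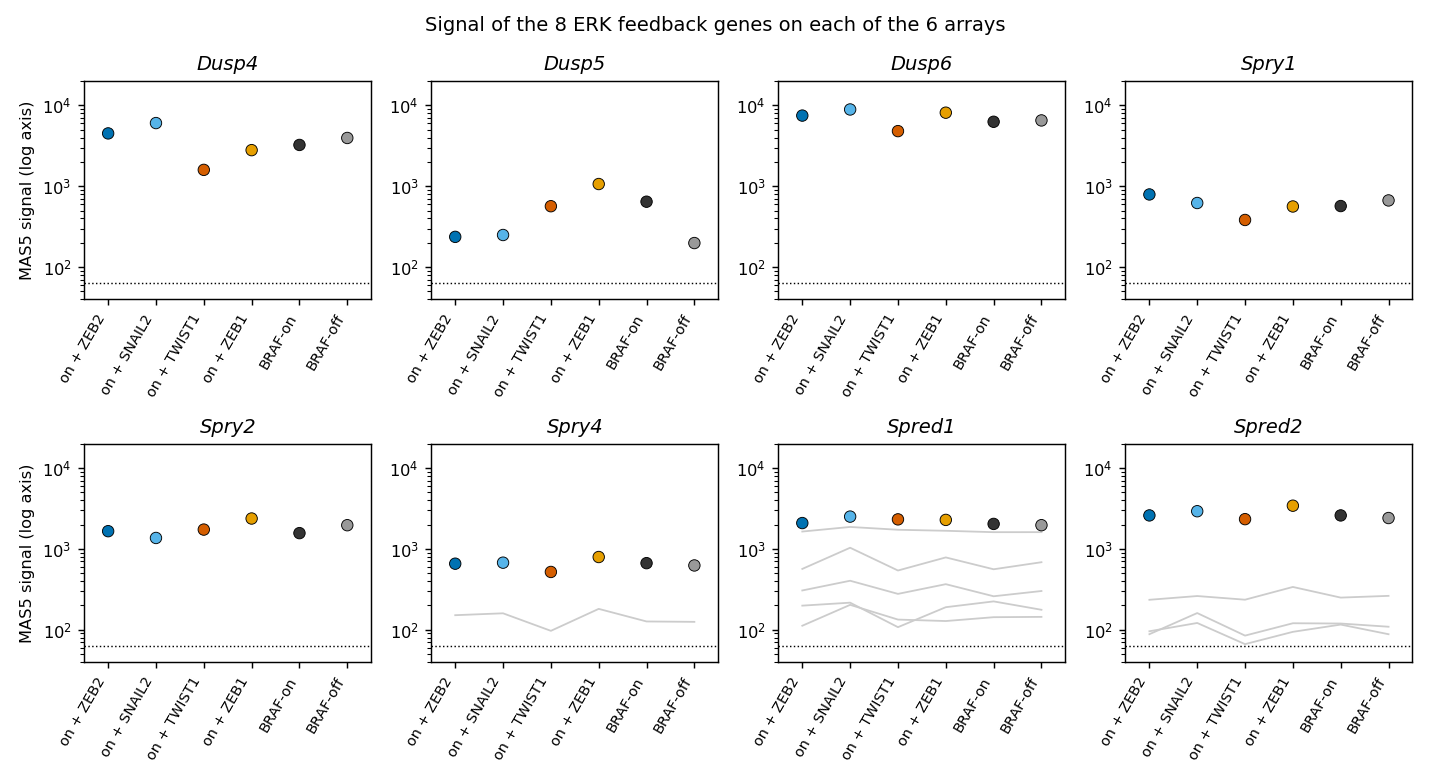
MAS5 signal (log axis) of the 8 genes on each of the 6 arrays, with coloured points for the probe set of highest mean signal, grey lines for other probe sets above the floor on all arrays, and a dotted line at the floor of 63.7. Dusp5 sits at 236 and 249 with ZEB2 and SNAIL2, at 566 and 1065 with TWIST1 and ZEB1, at 644 in BRAF-on and at 198 in BRAF-off, while the points of the Spred genes lie nearly level.

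The RefSeq promoter table (build GRCm38.p6) holds 6 of the 8 genes. The 250 bases before the annotated start are shown for Dusp5, the member that differed most between arrays, and for Dusp6, the phosphatase gene that stayed within 2-fold, so that the letters can be compared. Capitals mark CArG boxes, the motif known to be bound by serum response factor, which works with cofactors that ERK can regulate. Both sequences are on the plus strand, Dusp5 at chr19:53528895-53529144 and Dusp6 at chr10:99262981-99263230.
Dusp5: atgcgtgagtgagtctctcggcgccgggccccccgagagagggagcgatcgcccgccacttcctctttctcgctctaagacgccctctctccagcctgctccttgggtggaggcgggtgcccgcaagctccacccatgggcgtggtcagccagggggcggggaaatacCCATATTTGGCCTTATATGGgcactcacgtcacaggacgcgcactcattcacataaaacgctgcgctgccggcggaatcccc
Dusp6: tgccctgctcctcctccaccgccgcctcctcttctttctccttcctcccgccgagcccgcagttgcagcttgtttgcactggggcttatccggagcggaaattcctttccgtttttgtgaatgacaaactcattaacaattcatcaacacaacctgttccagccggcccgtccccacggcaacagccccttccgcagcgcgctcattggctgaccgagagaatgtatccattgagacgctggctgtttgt

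Dusp5 held 2 CArG boxes, which adjoin each other without overlap, from 82 to 73 and from 72 to 63 bases before the start. Of 32851 windows of this length in the table, 482 (1.47%) held at least 1 CArG box and 6 held at least 2. None of the other 5 genes in the table held one. Both strands were also searched for the AP-1 motif TGANTCA (6.75% of all windows), the CRE TGACGTCA (1.55%), the ETS string CCGGAA (12%) and the E-boxes CAGGTG (17.2%), CACGTG (6.02%) and CAGATG (14.4%). No member's window held any of these exact strings. Shorter ETS strings such as GGAA, present in both printed sequences, were not counted. CAGGTG is known as a sequence bound by SNAIL and ZEB proteins. A match in letters is a description and not a binding site, and a window without a match says nothing of sites elsewhere.

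Dusp4, the gene of another nuclear MAP kinase phosphatase, had a different order of arrays from Dusp5. Its signal was 4502 with ZEB2, 6042 with SNAIL2, 1594 with TWIST1, 2795 with ZEB1, 3241 in BRAF-on and 3953 in BRAF-off. It was thus highest with SNAIL2 and ZEB2, where Dusp5 was low, and lowest with TWIST1. The summed melanocyte markers had the same order over all 6 arrays, with SNAIL2 highest (148781), then ZEB2, BRAF-off, BRAF-on (69783), ZEB1 and TWIST1 (4956), and their part in the Dusp4 values was not tested. The log2 ratio to BRAF-on was -1.02 with TWIST1 (2.03-fold lower), 0.90 with SNAIL2, 0.47 with ZEB2 and -0.21 with ZEB1. Between BRAF-on and BRAF-off it was -0.29. The highest Dusp4 signal was 3.79 times the lowest, and 5.35% of genes had as wide a span. The value with TWIST1 sits at the limit of 2-fold: it was -0.83 with median centring and -0.996 with the floor value added as a pseudocount.

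Dusp6, whose product keeps ERK inactive in the cytoplasm, stayed within 2-fold over the 6 arrays. It had signals of 7476 with ZEB2, 8899 with SNAIL2, 4804 with TWIST1, 8122 with ZEB1, 6269 in BRAF-on and 6514 in BRAF-off. The BRAF-on and BRAF-off arrays thus differed by 1.04-fold. The log2 ratio to BRAF-on ranged between -0.38 (TWIST1) and 0.51 (SNAIL2), so no pair with BRAF-on reached 2-fold. The whole span was 1.85-fold, against a median span of 1.73-fold over all genes above the floor, and 41.5% of genes had as wide a span. TWIST1 gave the lowest array for both Dusp4 and Dusp6, and SNAIL2 the highest.

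Among the Sprouty genes, Spry1 had the widest span. Its signal was 791 with ZEB2, 620.2 with SNAIL2, 383 with TWIST1, 562 with ZEB1, 569 in BRAF-on and 668 in BRAF-off. The array labelled TWIST1 was the lowest, at a log2 ratio of -0.57 to BRAF-on, and that labelled ZEB2 the highest, at 0.48. The span of 2.07-fold was equalled or passed by 30.1% of genes.

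Spry2 was highest with ZEB1, as were Dusp5, Spry4 and Spred2 but not the other members. It stood at 1658 with ZEB2, 1367 with SNAIL2, 1735 with TWIST1, 2378 with ZEB1, 1569 in BRAF-on and 1965 in BRAF-off. The log2 ratio to BRAF-on was 0.60 with ZEB1 and -0.20 with SNAIL2. A second, dim Spry2 probe set lay above the floor on 4 arrays. It was highest with SNAIL2 (88.6, against 51.2 in BRAF-on), where the first was lowest, so the direction with SNAIL2 depends on the probe set and was 0.14 by the median of both.

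Spry4 had a narrow span of 1.53-fold. Its brightest probe set read 657 with ZEB2, 676 with SNAIL2, 519 with TWIST1, 794 with ZEB1, 667 in BRAF-on and 625 in BRAF-off. A second probe set had the same arrays at its ends, with 97.1 with TWIST1 and 181 with ZEB1. A dimmer one read 104 in BRAF-on and, below the floor, 61.3 in BRAF-off, while the first 2 differed there by log2 ratios of 0.09 and 0.02. This dim probe set was 130 with ZEB2, 2.04-fold above BRAF-off. With SNAIL2 and ZEB1 it was below BRAF-on (log2 ratios -0.41 and -0.22), where the first 2 were above it.

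The Spred genes were the most even members. Spred1 read 2089 with ZEB2, 2511 with SNAIL2, 2321 with TWIST1, 2286 with ZEB1, 2039 in BRAF-on and 1967 in BRAF-off, a span of 1.28-fold that 90.5% of genes equalled or passed. Of its 6 probe sets above the floor on all arrays, 5 were higher with SNAIL2 than in BRAF-on, with log2 ratios from -0.05 to 0.88. With TWIST1 3 were higher and 3 lower, and 1 of them, at 108 against 224 in BRAF-on, was 2-fold lower (log2 ratio -1.06). This probe set carries the suffix for sequences shared by several transcripts, as do others of the 6, with log2 ratios of 0.10 and -0.05 with TWIST1. Whether shared sequence bears on any of these values was not tested.

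Spred2 read 2597 with ZEB2, 2927 with SNAIL2, 2335 with TWIST1, 3426 with ZEB1, 2596 in BRAF-on and 2411 in BRAF-off. Its span was 1.47-fold. Of its 4 probe sets above the floor on all arrays, all 4 were higher with SNAIL2 than in BRAF-on and all 4 were lower with TWIST1. The log2 ratios with TWIST1 ran from -0.80 to -0.09. The brightest one was at -0.15 there and turned to 0.04 with median centring, which raised all ratios of this pair.

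**Figure D2:**
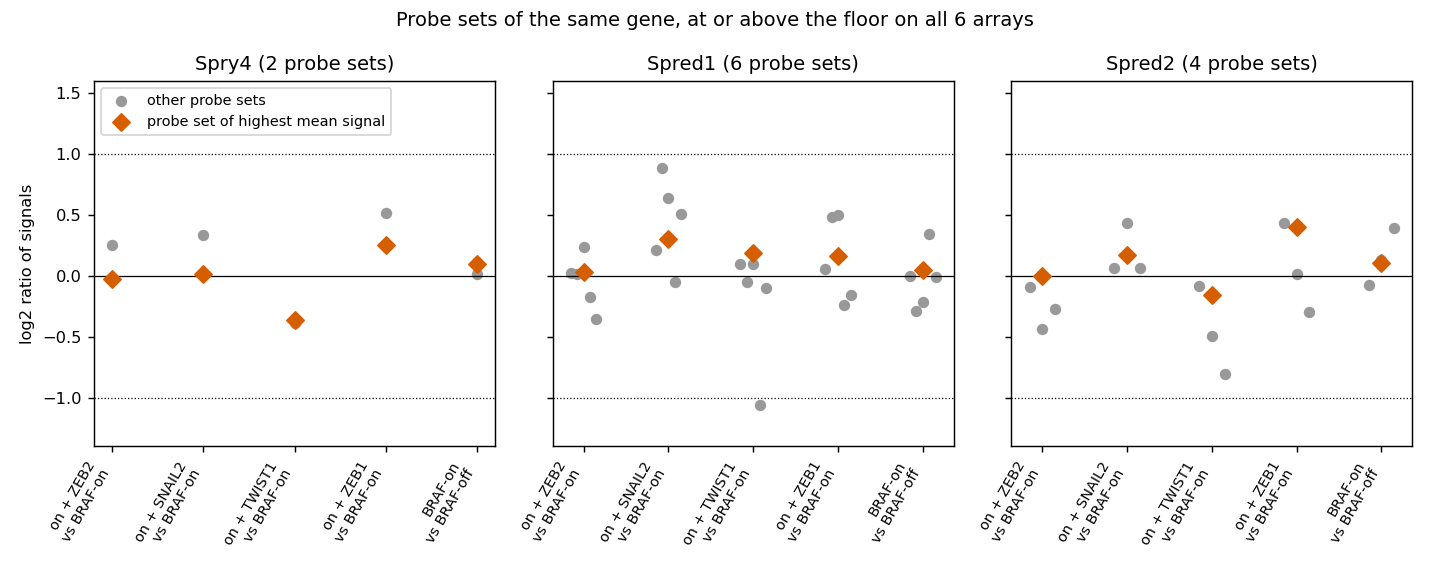
log2 ratios of signals for the probe sets of Spry4, Spred1 and Spred2 above the floor on all 6 arrays, in 5 pairs of arrays, with diamonds for the probe set of highest mean signal, grey points for the others and dotted lines at 2-fold. The Spred1 points lie on both sides of 0 in all 5 pairs and the 2 of Spry4 in that of ZEB2 alone, and 1 of Spred1 with TWIST1 (-1.06) lies past 2-fold.

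Taken by factor, the array labelled ZEB2 had 0 of the 8 genes at least 2-fold higher than BRAF-on and 1 lower, Dusp5. Over all genes, 1.76% were that much higher and 0.583% lower. The median of the 8 genes was 0.06, against -0.0048 for all genes. Of the 8, 6 lay above 0, against 49.2% of all genes. Among these 6, Spred2 was at 0.0003, and at -0.18 by the median of its probe sets. In the array labelled SNAIL2 likewise 0 were higher and 1, Dusp5, lower, where all genes had 5.61% higher and 6.42% lower. The median was 0.15 against 0.06 for all genes, with Dusp4 closest to 2-fold on the higher side.

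The array labelled TWIST1 had 0 of the 8 genes at least 2-fold higher than BRAF-on and 1, Dusp4, lower, where 2.03% of all genes were higher and 2.02% lower. Of the 8 genes 6 lay below 0, with a median of -0.27 against 0.0026 for all genes. Of all genes, 50.4% lay above 0. With median centring, which moved the median of all genes to 0.19, the members' median was -0.08. In the array labelled ZEB1, 0 were at least 2-fold higher and 0 lower, where all genes had 4.49% higher and 3.93% lower. Here 6 of the 8 lay above 0, led by Dusp5 and Spry2, against 56.7% of all genes. The median was 0.31, against 0.07 for all genes. All 4 of these comparisons share the BRAF-on array, so they are not independent of each other.

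Against BRAF-off, the array without activation, the factors gave a second view of the same signals, and these 4 comparisons share that array with the first one. With ZEB2 the 8 genes lay between log2 ratios of -0.25 (Spry2) and 0.25 (Dusp5), and 0 were at least 2-fold higher or lower, against 1.02% and 0.325% of all genes. Spry4, Spred1 and Spred2 were at or below 0.11 and turned negative with median centring. With SNAIL2 they lay between -0.52 (Spry2) and 0.61 (Dusp4), again with 0 higher and 0 lower, against 4.0% and 5.31% of all genes. Dusp5 was at 0.33 there, so this pair of factor arrays came close to BRAF-off for this gene.

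With TWIST1, Dusp5 was 2.85-fold higher than in BRAF-off and Dusp4 2.48-fold lower, which makes 1 gene higher and 1 lower, against 3.11% and 2.61% of all genes. Spry1 was next on the lower side, at -0.80. With ZEB1, Dusp5 was 5.37-fold higher, rank 67 from the highest among 11508 genes, and no other member passed 2-fold, against 7.06% of all genes higher and 5.20% lower. Spred2 (0.51) and Dusp4 (-0.50) came next by size.

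**Figure D3:**
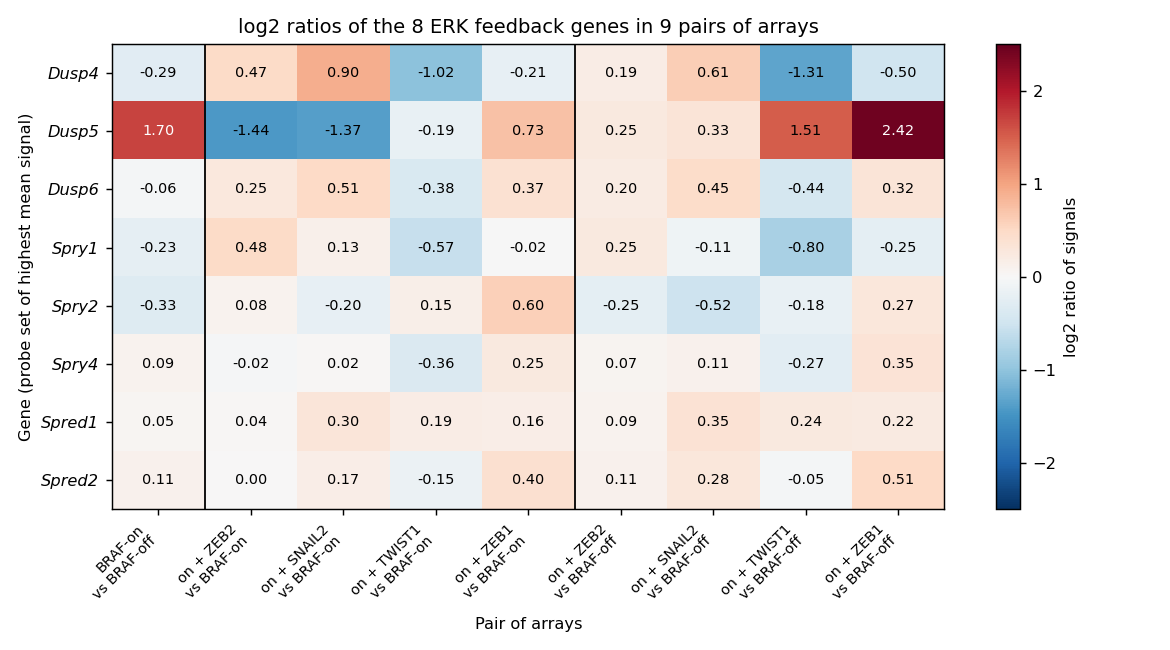
log2 ratios of signals of the 8 genes (rows) in 9 pairs of arrays (columns: BRAF-on against BRAF-off, each factor against BRAF-on, and each factor against BRAF-off), with red for higher and blue for lower in the first-named array. Dusp5 holds the strongest colours, from -1.44 to 2.42, and the Spry and Spred rows stay between -0.80 and 0.60.

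For each member that spanned at least 1 log2 unit, the 3 genes of most similar profile were sought among 9936 genes above the floor on all 6 arrays. Likeness was the root mean square difference of log2 signals, each gene centred on its own mean. For Dusp5 these were Atf3, a stress-induced transcription factor gene (0.25), Tle2, a co-repressor gene (0.26), and Pold4, a small subunit of DNA polymerase delta (0.26), against a median of 0.92 over all genes. Atf3 had signals of 305 with ZEB2, 278 with SNAIL2, 490.1 with TWIST1, 876 with ZEB1, 515 in BRAF-on and 202 in BRAF-off. Like Dusp5 it was lowest in BRAF-off and highest with ZEB1.

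For Dusp4 the nearest was Bhlhe40, a transcriptional repressor gene (0.10), with 2028 with ZEB2, 3104 with SNAIL2, 709.8 with TWIST1, 1211 with ZEB1, 1412 in BRAF-on and 1633 in BRAF-off. It was followed by 1700086P04Rik (0.10) and Fam120aos (0.11), against a median of 0.63. For Spry1 the nearest were Nabp2, a single-strand DNA binding protein gene (0.08), Anxa4, an annexin gene (0.09), and Eci2, an enzyme of fatty acid breakdown (0.09), against a median of 0.41. With 6 arrays and 9936 genes some genes lie close to any profile, so these names describe these arrays and no more.

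**Figure D4:**
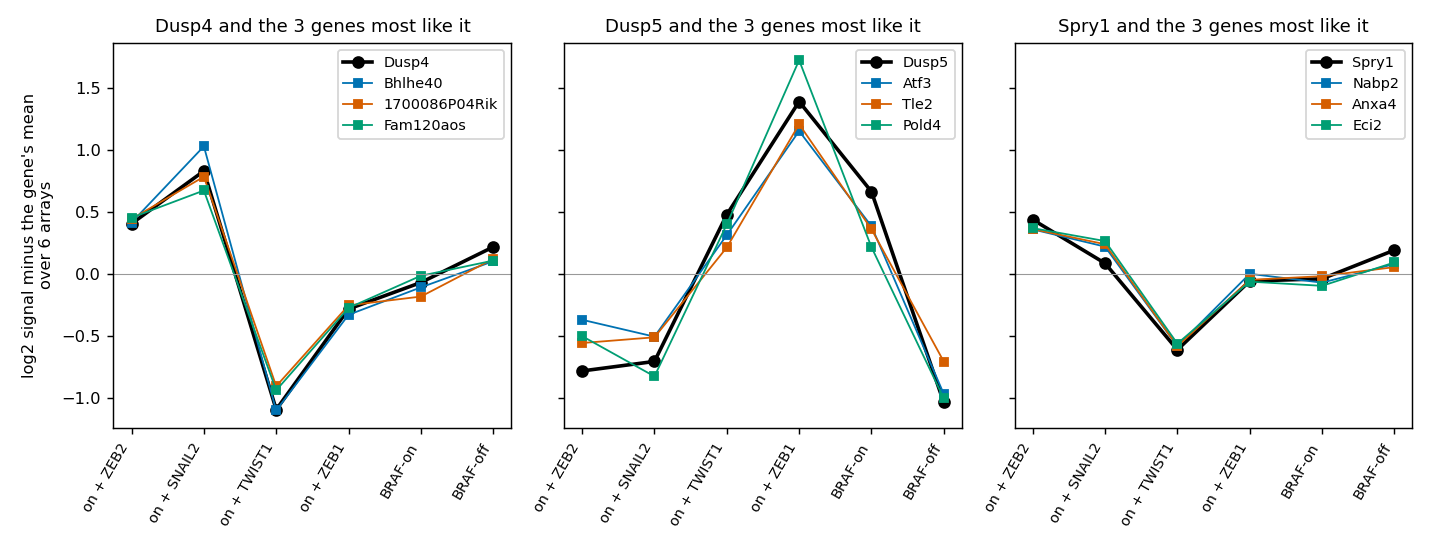
log2 signal minus the gene's own mean over the 6 arrays, for Dusp4, Dusp5 and Spry1 (black) and for the 3 genes of most similar profile to each (coloured). The Dusp5 group peaks with ZEB1 and is lowest in BRAF-off, the Dusp4 group is highest with SNAIL2 and lowest with TWIST1, and the Spry1 group is lowest with TWIST1.

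Other genes of the pathway were taken from 5 lists. Between BRAF-on and BRAF-off, 9 other dual specificity phosphatase, Spry and Spred genes could be compared. None was 2-fold apart, 8 lay above 0, and the median log2 ratio was 0.27. Of all genes, 49.7% lay above 0, with a median of -0.0017. Spred3, another Spred gene, had 381 in BRAF-on and 231 in BRAF-off (0.72), and Dusp8, a phosphatase gene known for acting on stress kinases, had a log2 ratio of 0.68. Other brakes on RAS and ERK had 12 of 16 above 0 and none 2-fold apart, with a median of 0.13.

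ERK target transcription factors and other outputs had a median of 0.36 in this pair, with 16 of 19 genes above 0 and 2 of them past 2-fold on the higher side, against 49.7% of all genes above 0 and 1.04% past 2-fold. These were Fosl1, an AP-1 subunit gene (995 in BRAF-on and 412 in BRAF-off), and Lif, a cytokine gene (511 and 218). Genes of the RAS to ERK core had a median of -0.04, with 5 of 15 above 0, and receptors one of -0.05, with 4 of 11. None of those was 2-fold apart. With each array centred on its median, where all genes had a median of -0.20, the medians were 0.07 for the other phosphatase and Spry/Spred genes, -0.06 for other brakes, 0.16 for the outputs, -0.24 for the core and -0.25 for the receptors. The other brakes thus turned negative by their median, though it stayed above that of all genes, with 6 of 16 above 0. Then 2 receptors were 2-fold lower, as were 101 of 11198 genes.

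With ZEB2, Dusp8 (181 against 424 in BRAF-on) and Lif (235 against 511) stood past 2-fold on the lower side, as Dusp5 did, and the receptor tyrosine kinase genes Kit and Erbb3 were higher (log2 ratios 1.16 and 1.08), where 1.76% of all genes were that much higher and 0.583% lower. Medians were -0.29 for the other phosphatase and Spry/Spred genes, -0.31 for the outputs and -0.09 for other brakes. With SNAIL2, Lif (184 against 511) and the urokinase receptor gene Plaur (-1.09) were at least 2-fold lower, and Kit (1.88), Met (1.47) and Erbb3 (1.30) higher, where all genes had 5.61% higher and 6.42% lower. Kit, Met and Erbb3 each had the same order of the 6 arrays as the summed melanocyte markers. The medians of the first 2 lists were -0.23 and -0.18, and that of other brakes -0.0086, or 0.07 with median centring. The core had medians of 0.12 with ZEB2 and 0.07 with SNAIL2, and no member 2-fold apart.

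With TWIST1, Myc was lower (log2 ratio -1.13), and Kit, at 20.8 and so under the floor, was lower by at least 11.8-fold (751 in BRAF-on). The receptor genes Pdgfrb (1.35) and Fgfr3 (1.17) were higher, where all genes had 2.03% higher and 2.02% lower. Of the other brakes, 2 of 16 lay above 0, against 50.4% of all genes. Medians were -0.13 for the other phosphatase and Spry/Spred genes, -0.20 for other brakes, -0.19 for the outputs and -0.02 for the core. With median centring, where all genes had a median of 0.19, these were 0.07, -0.0083, 0.0021 and 0.18, and no output was 2-fold apart. Of 11346 genes, 352 were then 2-fold higher and 160 lower. With ZEB1, Egr3, an immediate early transcription factor gene, was higher (667 against 194 in BRAF-on), as was Ier3, an early response gene (5037 against 2355). Kit was lower (-2.28), while Pdgfrb (1.04) and Pdgfra (at least 2.14-fold), both receptor genes, the second also on the fibroblast list, were higher. Of all genes 4.49% were that much higher and 3.93% lower. Medians with ZEB1 were 0.26, 0.29, 0.18 and 0.02 in the same order of lists, and the last was -0.02 with median centring.

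Set against BRAF-off, 6 of 20 outputs were at least 2-fold higher with ZEB1, where Dusp5 was highest, against 7.06% of all genes. The 4 largest were Egr3 (2.29), Lif (1.80), Egr1 (1.63) and the AP-1 gene Junb (1.55). With TWIST1 there were 2 of 20, Egr3 (1.22) and Egr1 (1.05), against 3.11% of all genes, and Myc was lower (-1.07), against 2.61%, while with ZEB2 and with SNAIL2 there was none in either direction. Of the other phosphatase and Spry/Spred genes, Dusp2 was past 2-fold on the higher side with SNAIL2 (508 against 247) and with ZEB1 (509 against 247). Of the other brakes, Ier3 (1.67) and the adaptor gene Sh2b3 (1.05) were higher with ZEB1. Of the receptors, Kit was higher with SNAIL2 (1.07), Fgfr3 was lower with ZEB2 (-1.20), and Met was lower with TWIST1 (-1.53) and ZEB1 (-1.43). Kit was lower too on those arrays, by at least 20.7-fold with TWIST1 and by 3.09 on the log2 scale with ZEB1. Erbb3 was lower with TWIST1 (-1.08), and Egfr (1.20) and Pdgfra (against a BRAF-off signal under the floor) were higher with ZEB1. With median centring the genes 2-fold higher with ZEB1 than in BRAF-off were 5 of 20 outputs, 1 of 16 other brakes and 0 of the 9 phosphatase and Spry/Spred genes and of the 12 receptors. Those 2-fold lower were then 1 of 20 outputs, 1 of 15 core genes and 2 of 12 receptors. Of 11439 genes, 514 were that much higher and 994 lower in this setting and pair. With SNAIL2 centring left 0 of the 9 phosphatase and Spry/Spred genes and 0 of 11 receptors 2-fold higher than in BRAF-off. Of 11243 genes, 314 were that much higher there.

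**Figure D5:**
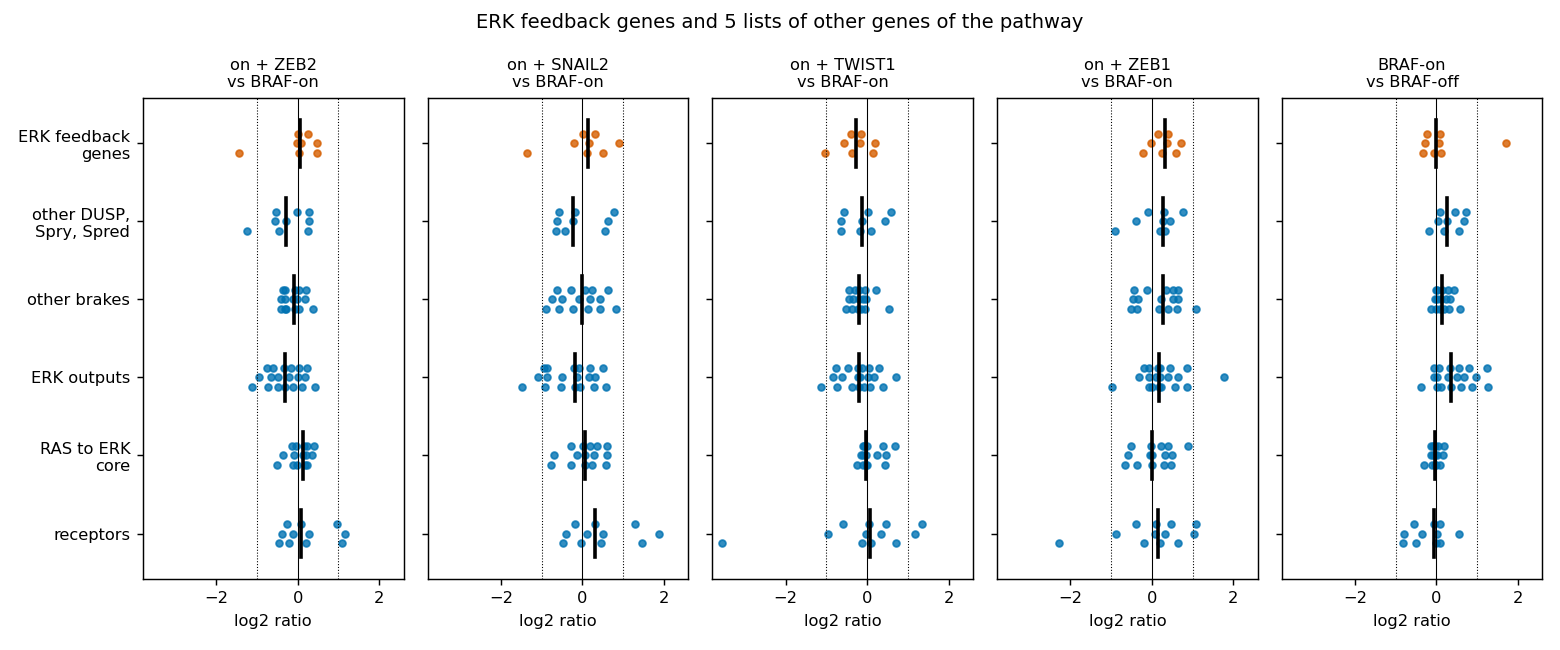
log2 ratios of single genes (points) and medians (black bars) for the 8 ERK feedback genes (orange) and 5 lists of other genes of the pathway (blue) in 5 pairs of arrays, with dotted lines at 2-fold and values against an array below the floor drawn at their bound. The single orange point past 2-fold is Dusp5 with ZEB2, with SNAIL2 and in BRAF-on against BRAF-off, and Dusp4 with TWIST1.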

How the data were processed

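RNA was labelled with an in vitro transcription kit for the 3′ end, and each sample was read on its own Affymetrix mouse array, per the labels. Affymetrix Expression Console 1.1 turned the scans into linear MAS5 signals, the intensity values the authors deposited, according to the submitters' processing notes. Leaving out the top and bottom 2%, every array averaged 500.003, the common level to which the authors had scaled the deposited intensities. No further normalization was applied, and no detection calls were used.

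Of 45101 probe sets 64 were controls. Of the other 45037, 34945 had 1 gene symbol in the platform annotation, updated through the Entrez number with a RefSeq table of assembly GRCm38.p6, and the 932 with several and 9160 with none were not used. Values under the floor of 63.7 were raised to it, and genes below it on both arrays of a pair were left out of that pair. Genes were counted at 2-fold, by size alone. The counting was tested on simulated data with little noise, in which only bright genes were changed. That does not cover dim genes or ratios near 2-fold. The pathway genes named are members at least 2-fold apart, at most 4 per list, direction and comparison; Spred3 and Dusp8 in BRAF-on against BRAF-off were named after their values were seen, as was the Spred1 probe set past 2-fold. The 8 members and the lists were chosen with earlier results of these data known. Positions of probe sets along transcripts are not given in the sources used here. Computation used Python 3.11.15, numpy 2.4.6, pandas 2.3.3 and matplotlib 3.10.9.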

Additional observations from a re-analysis of the deposited data

How the results depend on the processing

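The 9 alternatives concerned scaling (quantile normalization or median centring), dim values (a floor at the 75th or the 60th percentile, none, or a pseudocount of its size), probe sets (a median over those of a gene, or none with the suffix for shared sequence) and a limit of 3-fold. Part of the agreement was fixed in advance. The main probe sets of all 8 genes lay above the floor at the 60th percentile (133 signal units) on every array, and none has that suffix. So that floor, no floor, or leaving out such probe sets could not move the members' ratios, medians or counts. The median over probe sets could not move genes with 1 probe set. Of 574 alternative values of single genes, 569 moved by less than 1.5-fold and none of the ratios past 2-fold changed sign. All 72 alternative medians moved by less than that. Of 162 alternative counts of members, 151 were unchanged. Most of the 162 belong to counts that were 0 in the main setting and stayed at 0. The 151 thus say little of how firmly the counted genes, Dusp5 and Dusp4, held.

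The counts that changed all went to 0. With the floor at the 75th percentile Dusp5 was no longer counted as higher in BRAF-on against BRAF-off (0 genes) or with TWIST1 against BRAF-off (0), nor as lower with ZEB2 (0) or SNAIL2 (0) against BRAF-on, since that floor lies above its dim arrays. It was still counted with ZEB1 against BRAF-off (log2 ratio at least 1.16). Dusp4 with TWIST1 against BRAF-on was not counted with median centring (0) or the pseudocount (0). At 3-fold the count was 0 for genes lower with ZEB2, SNAIL2 or TWIST1 against BRAF-on, and 0 for genes higher and 0 lower with TWIST1 against BRAF-off.

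The array medians used for centring ran from 58.5 (BRAF-off) to 68.9 (ZEB1), near the floor of 63.7, so centring lines up dim probe sets. Median centring moved the median of all genes by more than 0.1 in 5 comparisons, to -0.20 in BRAF-on against BRAF-off, 0.19 with TWIST1 against BRAF-on, and -0.13, -0.0072 and -0.15 with ZEB2, SNAIL2 and ZEB1 against BRAF-off. It also shifted the split over all genes: 92 higher and 101 lower in BRAF-on against BRAF-off in place of 116 and 43, 807 and 600 with SNAIL2 against BRAF-on in place of 641 and 733, and 352 and 160 with TWIST1 in place of 230 and 229. Against BRAF-off it gave 62 and 65 with ZEB2 in place of 113 and 36 (quantile normalization 83 and 43), 314 and 777 with SNAIL2 in place of 446 and 592, and 514 and 994 with ZEB1 in place of 812 and 598. No paired analysis was possible because each group has 1 array. Dim signals vary more than bright ones, so ratios of dim probe sets are the less certain ones.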
